A study of Mus musculus with 4 samples.

Results

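Isolated peaks are stretches of open chromatin that stand alone on the chromosome. They were chosen by position: on each autosome, a peak was a member when the distance to the previous peak and to the next peak were both over 100000 bp and its own length was at most 2000 bp. Of the 57090 peaks in the merged peak set, 752 met this rule, or 1.32%. The rule used positions only and no read count, but positions come from peaks called on these same libraries. The 1148 peaks on the sex chromosomes and the 38 first or last peaks of an autosome could not be members. Another 6 peaks had both gaps over 100000 bp but were too long, and 5350 autosomal peaks had such a gap on only 1 side.

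The peaks were measured by ATAC-seq, which reads out where a transposase could enter open DNA, in bone marrow monocytes of 2-mo-old mice, C57Bl/6J per the study's methods. There were 4 libraries of 20000 cells, made from 4 pooled mice per batch: femur replicate 1 and mandible replicate 1 from batch A, and femur replicate 2 and mandible replicate 2 from batch B. The labels name no genetic change and no treatment. The labels give male mice and CD11b+ cells, whereas the protocol enriched monocytes by removing other cells, and the paper's isolation paragraph gives both sexes. Total counts in peaks ranged from 27464565 to 75294068, and batch B held both the shallowest and the deepest library. Femur replicate 2, the deepest, stood apart from the other libraries across all peaks, so values without it are given beside results that rest on it. The cell type could not be checked against marker genes, because no annotation of GRCm39, the build of the peaks, was used here. For the same reason no gene, sequence or motif is given for any peak.

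In mammalian genomes most open chromatin lies near active genes, where promoters and enhancers form dense groups. Gene-poor stretches are often held at the nuclear periphery in compact chromatin and replicate late. Open sites that do occur there can be the promoter of a lone gene, a distant enhancer, or a site bound by CTCF, the protein that anchors chromatin loops. Which of these the isolated peaks are was not tested.

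Isolated peaks sat in long stretches without any other called peak. The smaller of the 2 gaps beside a member had a median of 163 kb, and the larger gap had a median of 444 kb. For the other autosomal peaks of at most 2000 bp (n = 53980) the smaller gap had a median of 3.00 kb. In 284 members both gaps were over 200 kb, in 62 both were over 500 kb, and in 18 both were over 1000 kb. Gaps over 100 kb made up 6.14% of the 55923 gaps between neighbouring autosomal peaks but 67.7% of the bases in them, 1598 Mb in all, and 1328 of these 3436 long gaps bordered a member. Some members followed each other: 308 of the 752 (41.0%) had another member as a direct neighbour, in runs of up to 5.

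Every autosome held isolated peaks. They made up from 0.764% of the peaks of chromosome 11 to 1.90% of those of chromosome 18, with 1.88% on chromosome 15 and 1.81% on chromosome 13. Across the 19 autosomes this share was lower where there were more protein-coding genes per Mb (Spearman's rho = -0.72) and where GC content was higher (rho = -0.59). Both chromosome properties come from the GRCm38 assembly, and they were themselves related (rho = 0.83). The share is taken over the peaks of a chromosome, so for a given number of members it is lower where there are more peaks. Per Mb, members ran from 0.221 on chromosome 17 to 0.433 on chromosome 15. How members per Mb relate to genes or GC content was not tested. These correlations are descriptions over 19 chromosomes of the same libraries.

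The 4 most isolated members differed widely in level. Levels are given as library-size CPM, the count in a peak scaled to the total count in all peaks of that library. Peak_1714 on chromosome 1 from 111791778 to 111792897 had 3604 kb without a peak on one side and 6446 kb on the other. Batch A gave 37.9 CPM in femur and 41.7 CPM in mandible, and batch B gave 28.9 and 35.2 CPM. That mean level was above that of 88.5% of the other peaks. Peak_11969 on chromosome 12 from 62041139 to 62041412 was weak, with 5.08, 3.60, 4.45 and 3.82 CPM in the same order. Peak_40558 on chromosome 5 from 60153976 to 60154409 had 11.2, 10.0, 7.41 and 7.68 CPM. Peak_35509 on chromosome 3 from 113423242 to 113424674 had 96.9, 98.1, 78.6 and 86.7 CPM and stood 3265 kb and 1966 kb from its neighbours. In 3 of these 4 peaks, Peak_11969 being the exception, both batch A libraries were higher than both batch B libraries. The same order held in 37.1% of all members and in 11.2% of all peaks.

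Isolated peaks were shorter and weaker than other peaks at the median. Median length was 306 bp in isolated and 357 bp in other peaks, and the median of the mean CPM was 5.15 against 6.56. Per length, the median level was 17.6 CPM per kb in isolated and 19.4 CPM per kb in other peaks. The median CPM of other peaks with the length distribution of the members was 5.75, and the median length of other peaks with their CPM distribution was 290.0 bp. At the median, members were thus weaker than other peaks of like length, but not shorter than other peaks of like CPM. At the 90th percentile the order of the levels turned, with 42.9 CPM in isolated peaks, 40.01 in all other peaks and 37.1 in other peaks of like length. The length there was 1060 bp in isolated and 1140 bp in all other peaks. In other peaks of like CPM it was 1142 bp, so at this percentile members were shorter than these as well.

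**Figure D1:**
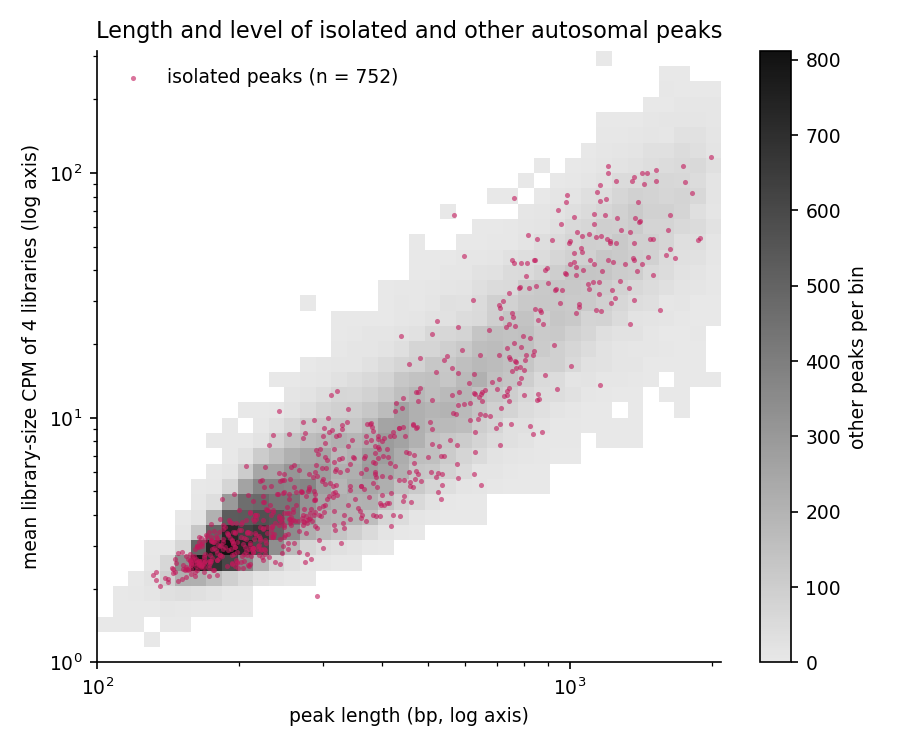
Peak length in bp against mean library-size CPM of the 4 libraries, both on log axes. Each pink point is 1 of the 752 isolated peaks, and the grey shading counts the 53980 other autosomal peaks of at most 2000 bp per bin. The isolated peaks run along the same band as the others, from short weak peaks to a small group of long peaks of up to 116 CPM.

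Length and level rose together among the members, as they did among other peaks. The 282 members of at most 250 bp (37.5% of members, against 32.7% of other peaks) had a median of 2.99 CPM. At the other end, the 88 members of over 1000 bp had a median of 51.7 CPM (quartiles 39.5 and 66.6), close to the 50.5 CPM of other peaks of that length (quartiles 35.0 and 72.8). These 88 peaks, 11.7% of the members, carried 46.8% of the signal in isolated peaks. In all, 142 members reached 20 CPM, or 18.9% against 19.1% of other peaks of like length, and 84 reached 40 CPM, or 11.2% against 8.96%. The 17 members of 80 CPM or more were 2.26% of the members, as in other peaks of like length.

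The strongest isolated peaks were among the stronger peaks of the whole set. Of the 6 with the highest mean CPM, 1 lay on chromosome 18, whose 31 members are counted throughout but not described singly. Peak_47731 on chromosome 7 from 58877680 to 58879671 led with 116, 127, 105 and 116 CPM, batch A before batch B and femur before mandible in each. By mean CPM it had rank 916 among all peaks. Peak_17307 on chromosome 14 from 61409887 to 61411089 had 107, 117, 101 and 101 CPM. Peak_43962 on chromosome 6 from 51988583 to 51990106 had 100.3, 107, 90.5 and 114 CPM. Peak_33454 on chromosome 3 from 5640553 to 5642009 had 108, 103, 89.1 and 101 CPM, and Peak_40977 on chromosome 5 from 86951655 to 86952861 had 105, 105, 90.3 and 100.1 CPM. Femur replicate 2 was the lowest library in each of these 5 peaks. Femur and mandible overlapped in 4 of them, and in Peak_43962 both mandible libraries were above both femur libraries. The log2 fold changes, mandible over femur, lay between -0.05 in Peak_33454 and 0.11 in Peak_43962, with standard errors of 0.108 and 0.104.

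Peaks on either side of the limits of the rule are given as values only. Just inside the gap limit were Peak_35032 on chromosome 3 (smaller gap 100.1 kb, mean 3.43 CPM) and Peak_34065 on chromosome 3 (100.4 kb, 4.600 CPM). Just outside were Peak_1622 and Peak_1623 on chromosome 1, which are each other's neighbours at 99.96 kb, with 5.89 and 2.96 CPM. The longest members were Peak_47731 at 1992 bp and Peak_4664 on chromosome 10 at 1881 bp (54.2 CPM). The shortest of the 6 peaks that were too long were Peak_19287 on chromosome 15 at 2027 bp (146 CPM) and Peak_51260 on chromosome 8 at 2068 bp (61.7 CPM).

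Set beside like peaks, isolated peaks were higher in both libraries of batch A and lower in both of batch B. For each peak, the log2 CPM of a library was compared with the mean of the other 3 libraries. The median deviation over the 752 members was 0.14 in femur replicate 1, where other peaks of like length and CPM had 0.03. It was 0.03 against -0.08 in mandible replicate 1, 0.02 against 0.16 in femur replicate 2 and -0.18 against -0.07 in mandible replicate 2. Isolated peaks thus lay 0.11 above like peaks in both libraries of batch A, and 0.13 and 0.11 below them in the libraries of batch B. Of the members, 75.7% were above the other libraries in femur replicate 1, against 56.0% of like peaks, and 22.1% in mandible replicate 2, against 40.6%. Across members the SD of the deviation was 0.278 and 0.264 in batch A, femur first, and 0.454 and 0.328 in batch B, while in like peaks it was 0.246 and 0.284, and 0.470 and 0.352. Femur replicate 2 thus had the widest spread in both sets of peaks.

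**Figure D2:**
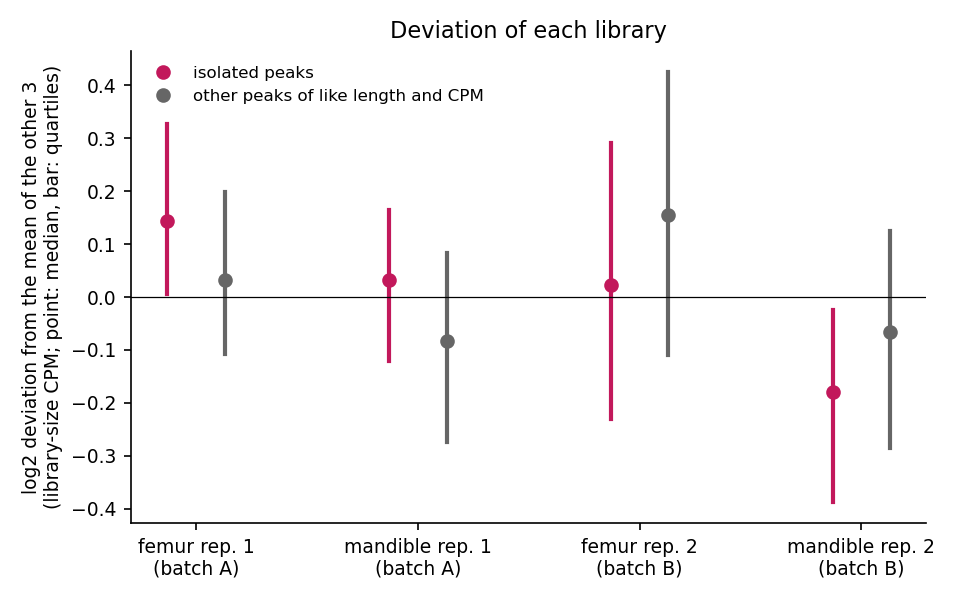
Deviation of each library from the mean of the other 3 libraries, in log2 of library-size CPM. Points are medians and bars run from the lower to the upper quartile, pink for the 752 isolated peaks and grey for other peaks weighted to the same length and CPM. The pink median is above the grey one in both batch A libraries and below it in both batch B libraries.

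The same pattern was seen as a direct difference between batches, at each site on its own. From batch A to batch B the median log2 difference of isolated peaks was -0.09 in femur and -0.15 in mandible, while in like peaks it was 0.09 and 0.02. Isolated peaks therefore fell short of like peaks by 0.19 in femur and by 0.17 in mandible, and the mandible value does not use femur replicate 2. In 70.5% of members the mean of both sites was lower in batch B, against 43.3% of like peaks. The median was below that of like peaks of the same chromosome in each of the 19 autosomes, by 0.04 on chromosome 14 to 0.36 on chromosome 17. Both batch B libraries were below both batch A libraries in 279 members (37.1%), against 10.6% of like peaks and 11.2% of all 57090 peaks. The reverse order held in 49 members (6.52%), against 17.0% of like peaks and 17.2% of all peaks. With loess-normalized CPM, 342 members (45.5%, against 15.8% of all peaks) were lower and 44 (5.85%, against 16.4%) higher in batch B by the same measure. With 2 batches, the mice, the day of work and the preparation of the libraries cannot be told apart, and the comparison of batches was added after the data were seen.

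Strong and weak members shared this difference. In the 372 members under 5 CPM the median batch B minus batch A difference was -0.02 in femur and -0.20 in mandible, where like peaks had 0.14 and -0.01. For the 238 members from 5 to 20 CPM the values were -0.10 and -0.15, where like peaks had 0.09 and 0.08. Members of 20 CPM or more, where counting error is smallest, had -0.17 and -0.12 (n = 142), where like peaks had 0.03 and -0.03. Isolated peaks were thus below like peaks at both sites in all 3 classes of level.

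In the edgeR quasi-likelihood test of batch, with site in the model, 69 members passed an unadjusted p-value of 0.05 as lower in batch B and 4 as higher. That is 9.18% of the members lower, against 1.97% of all peaks (and 1.80% of like peaks), and 0.532% higher, against 0.955% of all peaks. All 69 were lower in batch B in femur and 66 were in mandible, with median log2 differences of -0.89 and -0.38. They were picked by a test over both sites, which favours such agreement. Among these 69 the change was larger between the femur libraries. Over all members the batch difference minus that of like peaks was -0.19 in femur and -0.17 in mandible. The 69 lay on 18 autosomes and had a median length of 361 bp and a median of 7.17 CPM. With batch as the only term, 79 members were lower in batch B, against 1.69% of all peaks. TMM gave 64 lower, against 2.56%, and library size alone 45, against 1.64%. With batch as the only term and without femur replicate 2 the count was 104, against 4.73% of all peaks, without mandible replicate 2 it was 208 against 14.6%, without femur replicate 1 it was 22 against 0.424%, and without mandible replicate 1 it was 23 against 0.450%. In these fits 1 batch has a single library, which is assumed to vary like the others.

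Of these, 5 members passed an adjusted p-value of 0.05 in the edgeR test, against 0.0403% of all peaks, and they are named here after their values were seen. Under TMM 4 members passed, against 0.0561% of all peaks, under library size alone 3, against 0.0403%, and with batch as the only term 0 of all 57090 peaks passed. Peak_40784 on chromosome 5 from 68892555 to 68892937 had 15.05 CPM in femur replicate 1 and 12.5 in mandible replicate 1, but 3.59 in femur replicate 2 and 4.30 in mandible replicate 2. Both batch B libraries were far below both batch A libraries, and the fitted log2 difference was -1.89 with a standard error of 0.284 (edgeR, adjusted p = 1.57e-06). Peak_13097 on chromosome 12 from 106624560 to 106624839 had 5.51 and 6.004 CPM in batch A and 1.30 and 2.62 CPM in batch B, femur first, which is -1.72 with a standard error of 0.345 on the log2 scale (edgeR, adjusted p = 0.00414). Peak_22085 on chromosome 16 from 73671899 to 73672190 had 8.81 and 7.32 CPM in batch A and 3.20 and 3.71 CPM in batch B, which is -1.31 with a standard error of 0.302 (edgeR, adjusted p = 0.0488). These 3 peaks were lower in batch B at both sites. In the other 2 the mandible libraries were close to each other. Peak_2344 on chromosome 1 from 146843344 to 146844109 had 25.1 and 19.1 CPM in batch A and 6.04 CPM in femur replicate 2, yet 17.7 CPM in mandible replicate 2. Peak_37561 on chromosome 4 from 93557052 to 93557643 had 27.6 and 21.2 CPM in batch A and 7.16 CPM in femur replicate 2, yet 19.99 CPM in mandible replicate 2. Their adjusted p-values were 0.0287 and 0.0433 from edgeR, and in both only femur replicate 2 stood far from the other libraries.

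The difference between batches changed with the distance to the nearest peak, but over the whole range femur and mandible went opposite ways. Spearman's rho with the logarithm of the smaller gap was 0.17 in femur, -0.28 in mandible and -0.03 for the mean of both sites (n = 54732). Isolated peaks were the far end of the range of gaps. In mandible the median batch B minus batch A difference was 0.12 in peaks with a neighbour within 1 kb (n = 15647), -0.05 from 5 to 20 kb, -0.14 from 50 to 100 kb, -0.15 from 100 to 200 kb (n = 468), -0.14 from 200 to 500 kb (n = 222) and -0.17 over 500 kb (n = 62). In femur the order was not monotonic: the median was -0.04 within 1 kb, rose to 0.16 from 5 to 20 kb, and then fell to -0.03 from 100 to 200 kb, -0.18 from 200 to 500 kb and -0.25 over 500 kb. The share of peaks lower in batch B at an unadjusted p-value under 0.05 by edgeR was 1.43% from 5 to 20 kb, 4.08% from 50 to 100 kb, 5.98% from 100 to 200 kb, 12.6% from 200 to 500 kb and 21.0% over 500 kb, where it was 13 of 62 peaks, while within 1 kb it was 2.64%.

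**Figure D3:**
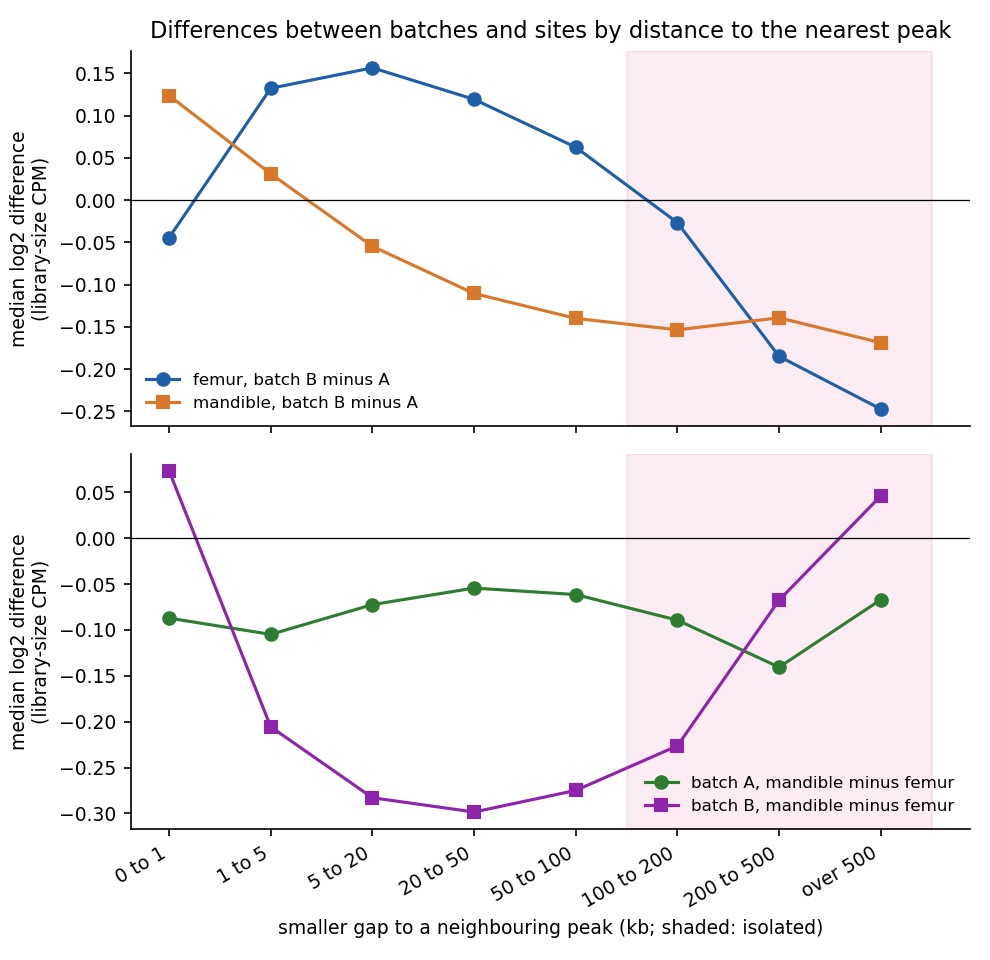
Median log2 difference in library-size CPM by the smaller gap to a neighbouring peak in kb, for autosomal peaks of at most 2000 bp. The upper panel gives batch B minus batch A in femur and in mandible, the lower panel mandible minus femur in batch A and in batch B, and the shaded classes are the isolated peaks. Both batch curves end below 0 in the shaded classes. The site curve of batch B goes from 0.07 within 1 kb to -0.30 at 20 to 50 kb and back to 0.05 over 500 kb.

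Mandible and femur, the comparison for which the study was made, gave no isolated peak past an adjusted p-value of 0.05. In the edgeR quasi-likelihood test with loess normalization over all 57090 peaks, 0 of the 752 members passed, against 0.00701% of all peaks, and DESeq2 also called 0. By unadjusted p-value, 20 members were under 0.05, 11 of them higher and 9 lower in mandible. The share of 2.66% compares with 2.71% of all peaks (1.61% higher and 1.1% lower) and 3.20% of like peaks, so the count of members was that of peaks in general. With batch as a replicate block, 17 were higher and 8 lower, against 2.96% of all peaks, and 0 passed the adjusted threshold, against 0.0998% of all peaks. The lowest adjusted p-value of a member in that edgeR fit was 0.0506, just over the threshold. It was that of Peak_29164, described below, where femur replicate 2 stood apart. The split into higher and lower moved with the scaling. TMM gave 11 and 16 members, against 2.49% and 2.06% of all peaks. Library size alone gave 5 and 32, against 1.17% and 4.53%, so all peaks moved the same way. DESeq2 gave 7 and 12, against 1.61% and 1.2%, and 431 members had no adjusted p-value in it. Counts were also simulated with 1 common spread, fitted to these libraries, for all peaks and libraries. In them the same edgeR test called 36.5% of 200 isolated peaks given a change of 1 on the log2 scale and 100% of 200 given a change of 2. The simulation held no batch difference and no wider spread of femur replicate 2, so the shares in the real libraries can differ. Most changes of 1 were thus not called in the simulated counts with 2 libraries against 2.

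Under other settings the share of members under an unadjusted p of 0.05 was lower than that of all peaks in some and higher in others. It was 3.59% against 4.54% with TMM, 4.92% against 5.71% with library size alone, 2.53% against 2.81% with DESeq2 and 2.66% against 2.72% with at least 10 counts in every library. Leaving out mandible replicate 1 gave 3.06% against 2.71%, femur replicate 2 gave 2.26% against 1.37%, mandible replicate 2 gave 1.73% against 1.4% and femur replicate 1 gave 16.6% against 16.4%. Past the adjusted threshold there were 0 members in all of these but the last, against 0.0105% of all peaks with TMM, 0.0315% with library size alone and 0.0263% with DESeq2. Without mandible replicate 1, femur replicate 2 or mandible replicate 2 it was 0 members against 0.028%, 0.0438% and 0.0123%. By order alone, both mandible libraries were below both femur libraries in 217 members (28.9%, against 27.5% of all peaks) and above them in 32 (4.26%, against 7.84%), in library-size CPM. With loess-normalized CPM it was 92 (12.2%, against 13.8%) and 74 (9.84%, against 13.3%).

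Over the members, the fitted change from femur to mandible had a median of 0.01 on the log2 scale, against -0.01 in like peaks. With library-size CPM, where the median of all peaks was -0.12, the median difference within batch A was -0.10 in isolated and -0.09 in like peaks, and within batch B it was -0.15 and -0.17. Taken as a whole, isolated and like peaks were thus within 0.02 of each other in each batch. By distance they were not: within batch B, members with a smaller gap of up to 200 kb had -0.23, where like peaks had -0.18. Those over 200 kb had -0.05, where like peaks had -0.15. Within batch A the values were -0.09 against -0.09, and -0.13 against -0.09. On this scale 52.8% of members had the same sign in both batches, against 51.0% of like peaks, with 308 lower and 89 higher in mandible in both. With loess-normalized CPM, which centres each library over all peaks, it was 42.6% against 43.6%. The SD of the difference across members was 0.271 within batch A but 0.510 within batch B. Counting error alone, at the median counts of the members and with each count taken as independent, gives about 0.146 and 0.148. Both reads of a pair were counted, so the true counting error can be larger. In the lower panel of the plot by distance, the median site difference of batch B went from -0.23 at 100 to 200 kb to 0.05 over 500 kb, while that of batch A stayed between -0.14 and -0.07 over the classes of isolated peaks. Peaks with a neighbour within 1 kb had 0.07 in batch B, so a value above 0 was not particular to the most distant class.

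The sign of the fitted median depended on which libraries were used. It was 0.10 without femur replicate 1 and 0.07 without mandible replicate 2, and -0.08 without femur replicate 2 and -0.09 without mandible replicate 1. In each of these fits 1 site is left with 1 batch, so site and batch are partly mixed. When femur replicate 2 was the only femur library, which is the fit without femur replicate 1, 35 members were higher and 7 lower past an adjusted p-value of 0.05 by edgeR, but 4.71% of all peaks passed as well.

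**Figure D4:**
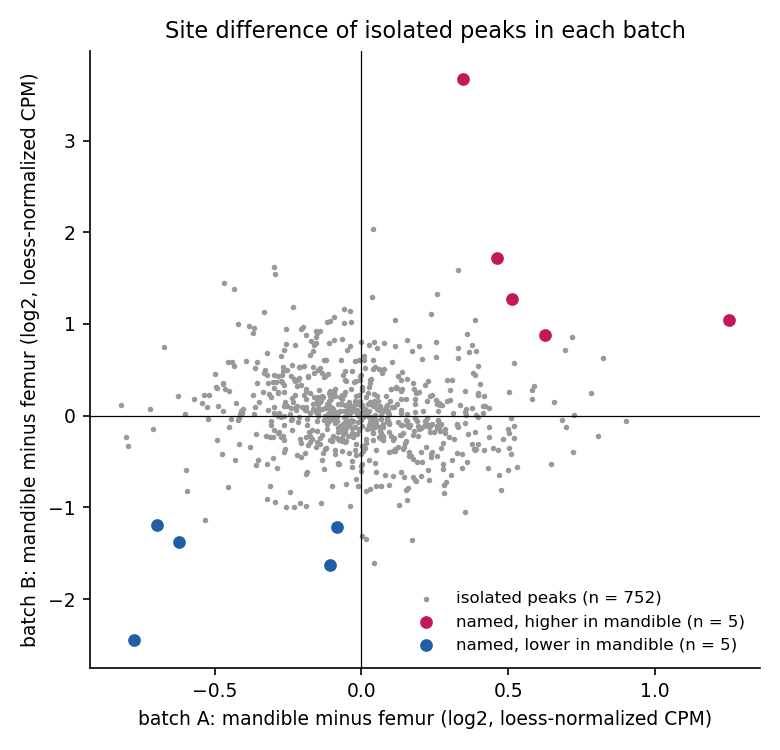
Mandible minus femur in batch A against the same difference in batch B, in log2 of loess-normalized CPM. Grey points are the 752 isolated peaks, and the coloured points are the 5 named peaks higher and the 5 named peaks lower in mandible. The cloud is wider along the batch B axis, and its median is -0.02 in batch A and 0.02 in batch B. Loess normalization centres each library over all peaks, not over the members. The sign is the same in both batches in 42.6% of members.

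Of the 20 members with an unadjusted p-value under 0.05, 19 had the same sign in batch A as in batch B, 11 higher and 8 lower in mandible. With 2 libraries per site, a low p-value favours peaks of the same sign in both batches, so this count is no replication. Over all members 42.6% had the same sign with loess-normalized CPM, against 43.6% of like peaks. Of the 19, the 5 with the lowest p-values in each direction are given, and no adjusted p-value among them was under 0.05. Since they were picked by their p-values, their sizes are descriptions. Peak_2994 on chromosome 1 from 168428539 to 168428956 had 2.68 and 2.26 CPM in the femur libraries, batch A first, and 5.82 and 3.71 CPM in the mandible libraries. Both mandible libraries were above both femur libraries, and the log2 fold change was 1.18 (standard error 0.310, unadjusted p = 0.00130 from edgeR), which was 0.85 with an unadjusted p of 0.0559 without mandible replicate 1. Peak_29164 on chromosome 2 from 22479585 to 22479897 had 13.2 and 4.77 CPM in femur and 16.7 and 14.6 CPM in mandible. Femur replicate 2 was far below the other 3 libraries, and the log2 fold change of 0.92 was 0.32 without that library.

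The remaining 3 higher peaks had mean levels from 1.87 to 4.93 CPM, those of Peak_24554 and Peak_51704. Peak_51704 on chromosome 8 from 94536840 to 94537258 had 3.20 and 4.78 CPM in femur and 4.503 and 7.25 CPM in mandible, so the sites overlapped between batches while mandible was higher within each. Peak_34064 on chromosome 3 from 57160067 to 57160262 had 1.61 and 2.07 CPM in femur and 2.10 and 4.15 CPM in mandible. Its log2 fold change was 0.96, but 0.10 without mandible replicate 2 (edgeR, unadjusted p = 0.849), and that of Peak_51704 was 0.77, but 0.40 without the same library (edgeR, unadjusted p = 0.296). Peak_24554 on chromosome 17 from 58162907 to 58163198 had 1.86 and 0.252 CPM in femur and 2.19 and 3.17 CPM in mandible. The value of 0.252 rests on a count of 19 in femur replicate 2, where the other 3 libraries had counts from 70.0 to 87.0. The log2 fold change of 1.501 was 0.71 without femur replicate 2 (edgeR, unadjusted p = 0.0640) and 0.98 without mandible replicate 2 (edgeR, unadjusted p = 0.151).

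In all 5 peaks named as lower in mandible, both mandible libraries were below both femur libraries, and mandible replicate 2 was the lowest. Picking by p-value and sign favours this order, which in library-size CPM held in 28.9% of all members and 27.5% of all peaks. Peak_51688 on chromosome 8 from 92884820 to 92885103 had 3.72 and 4.26 CPM in femur and 1.97 and 0.619 CPM in mandible, the last from a count of 17. Its log2 fold change was -1.37 (standard error 0.402, unadjusted p = 0.00313 from edgeR), and -0.80 with an unadjusted p of 0.0674 without mandible replicate 2. Peak_33599 on chromosome 3 from 18102066 to 18102318 had 3.47 and 4.66 CPM in femur and 1.94 and 1.60 CPM in mandible. Peak_39612 on chromosome 4 from 154614866 to 154615064 had 2.97 and 3.81 CPM in femur and 1.75 and 1.20 CPM in mandible. In these 3 peaks mandible was lower within each batch by at least 0.62 on the log2 scale after loess normalization. Peak_8182 on chromosome 11 from 52594259 to 52594533 had 2.04 and 5.18 CPM in femur and 1.72 and 1.35 CPM in mandible. Peak_16298 on chromosome 14 from 7991265 to 7991543 had 4.47 and 8.62 CPM in femur and 3.85 and 3.06 CPM in mandible. In Peak_8182 and Peak_16298 femur replicate 2 stood above the other libraries. Without it the log2 fold change of Peak_8182 went from -0.99 to -0.13 (edgeR, unadjusted p = 0.735) and that of Peak_16298 from -0.70 to -0.23 (edgeR, unadjusted p = 0.507). All 5 of these peaks missed an unadjusted p of 0.05 without mandible replicate 2.

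**Figure D5:**
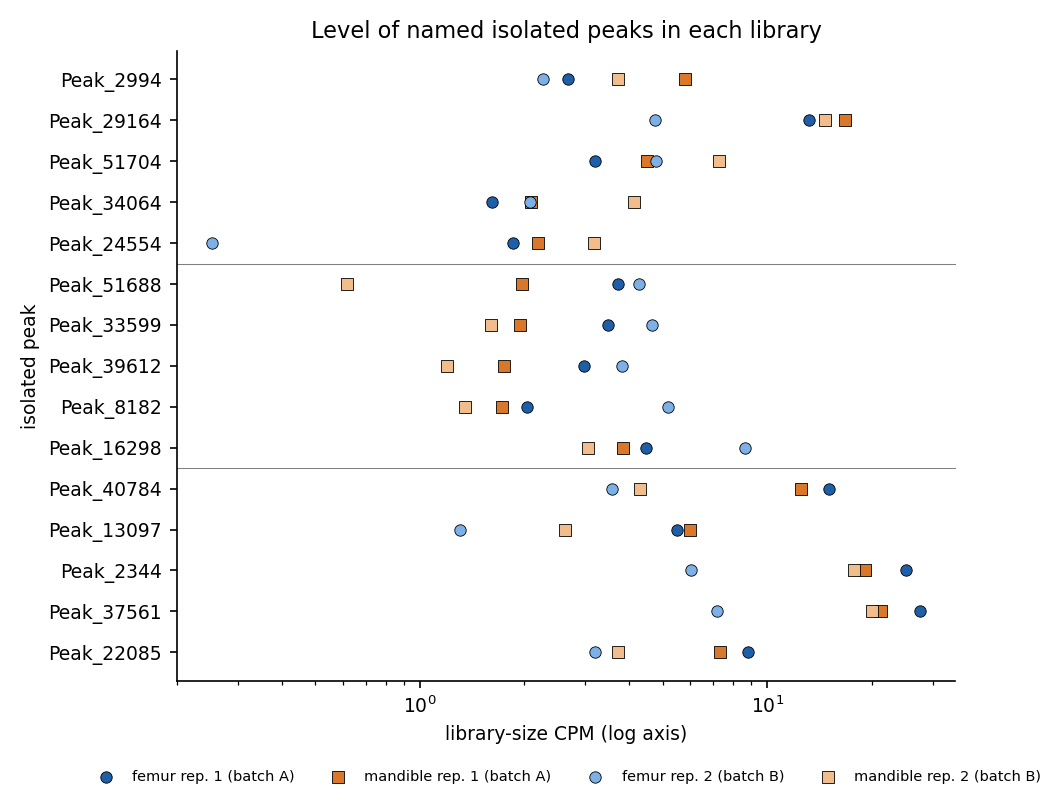
Library-size CPM on a log axis in each of the 4 libraries for 15 named isolated peaks. The top 5 were higher in mandible, the middle 5 lower in mandible and the bottom 5 lower in batch B, with circles for femur, squares for mandible, dark for batch A and light for batch B. In Peak_40784, Peak_13097 and Peak_22085 the light symbols are together well below the dark ones, while in Peak_2344 and Peak_37561 only femur replicate 2 is.

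Isolated peaks held about 1% of all counts in every library. The share was 1.107% in femur replicate 1 (95% Wilson interval 1.104% to 1.110%) and 1.079% in mandible replicate 1 (1.075% to 1.082%). In batch B it was 1.002% in femur replicate 2 (0.9996% to 1.004%) and 0.986% in mandible replicate 2 (0.982% to 0.989%). The intervals cover counting error only and do not overlap between the libraries. They take each count as independent, and as both reads of a pair were counted they can be too narrow. The femur libraries had a mean share of 1.05% ± 0.0744 (SD, n = 2) and the mandible libraries 1.03% ± 0.0659 (SD, n = 2), and the difference of -0.0222 percentage points was smaller than the spread between replicates (two-sided exact permutation p = 0.667, n = 2 and 2). Mandible minus femur was -0.0282 percentage points within batch A and -0.0161 within batch B. By batch the shares were 1.09% ± 0.0200 (SD, n = 2) in batch A and 0.994% ± 0.0114 (SD, n = 2) in batch B, and both libraries of batch A were above both of batch B. The exact permutation p of this difference was 0.3333, the smallest that 2 libraries against 2 allow, so it cannot pass 0.05. Relative to what like peaks would hold, isolated peaks had 103% and 101% of the counts in batch A, femur first, and 91.8% and 92.8% in batch B.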

How the data were processed

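Per the study's methods, the authors cleaned reads with Trimmomatic and mapped them with Bowtie2 to GRCm39. Reads of mapping quality under 20 and duplicates were dropped. Genrich then called peaks for each pair of duplicates, and bedtools joined the femur and mandible peaks into 1 set. The deposited values are raw counts of reads per merged peak (featureCounts 2.0.6, fragments of at most 1000 bp, both reads of a pair counted), with no normalization. Since peaks were called on duplicates together, the presence of a peak in 1 library cannot be compared. The last peak of 3 chromosomes lies past that chromosome's end in GRCm38, the build of the genome at hand, so no peak was looked up in it.

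Mandible was tested against femur with edgeR 4.0.16 (R 4.3.3, limma 3.58.1), glmQLFit and glmQLFTest, with loess offsets and site alone in the model, and p-values were adjusted by Benjamini-Hochberg over 57090 peaks. The default edgeR filter removed 0 peaks. Standard errors come from the fitted log2 change and the root of its F statistic. P-values rest on the spread between 2 pooled samples per site, which edgeR draws towards that of other peaks (median prior degrees of freedom 15.7). Deviations and differences used log2 library-size CPM with a pseudocount of 0.5 counts. Peaks of like length and CPM are all other autosomal peaks of at most 2000 bp, in 10 length classes by 10 CPM classes cut at the deciles of the members and weighted by the members in each class. They serve as a description, with no test.

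Same-numbered libraries share a batch per the labels, which pairs them. Their deviations from the site means had a correlation of -0.169 over all peaks and 0.067 over isolated peaks. The fit was tested on simulated counts. Alternatives were TMM, library size alone, DESeq2 1.42.0, at least 10 counts per library, a replicate block for batch, each library left out, other limits of gap and length, and other classes. The members and rules were chosen with earlier results of these data known, and the comparison of batches was added after seeing the data. Peaks named are the 6 with the highest mean CPM, at most 5 per direction with the lowest unadjusted p-value under 0.05 and the same sign in both batches, the 4 with the largest smaller gap and the 2 on each side of each limit, leaving out chromosome 18.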

Additional observations from a re-analysis of the deposited data

Results flagged for a closer look

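Chromosome X was outside the rule, and 65 of its 1129 peaks met the same limits of gap and length. They entered the fits and the shares over all peaks, but no value above is for them. They held 0.114% of the counts in both libraries of batch A and 0.104% in both of batch B. From batch A to batch B their median log2 difference was -0.08 in femur and -0.14 in mandible, where the 1046 other X peaks of at most 2000 bp had -0.06 and 0.06. No test was run on these 65 peaks.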

How the results depend on the processing

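Calls between sites depended on the scaling and on single libraries, for all peaks as well as for the members. The shares of members and of all peaks with a library left out are given above. At an unadjusted p-value under 0.05, 11 members were higher and 9 lower in mandible. Library size alone gave 5 and 32, TMM 16 lower, DESeq2 7 higher, and pairing by batch as a replicate block 17 higher. Of all peaks, 1.61% were higher and 1.1% lower in the main fit, and 1.17% and 4.53% with library size alone. TMM gave 2.06% of all peaks lower and DESeq2 1.61% higher. In both directions together it was 2.96% of all peaks with the replicate block, against 2.71% in the main fit. With each library left out, from 6 to 89 were higher and from 2 to 36 lower, and past an adjusted p-value of 0.05 from 0 to 35 and from 0 to 7. As a share of members, 1.46% were higher, but 0.600% with gaps over 50000 bp, and 1.20% lower, but 0.704% with gaps over 200000 bp. The median log2 fold change of 0.01 was -0.027 with TMM, -0.13 with library size alone, -0.025 with gaps over 50000 bp and from -0.086 to 0.099 with a library left out.

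The share of counts, lower in mandible by 2.13% of its mean, was -0.624% with gaps over 200000 bp, -4.08% with no limit on length and -12.0% at up to 500 bp, and the difference of -0.0222 percentage points ran from -0.0748 to 0.0304 with a library left out. There were 2001 members with gaps over 50000 bp and 284 over 200000 bp. The batch difference from like peaks, -0.19, was -0.13 and -0.24 with these limits. Members lower in batch B numbered 69, but 45 with library size alone. With batch as the only term they numbered 79, and from 22 to 208 with a library also left out. The cause was not tested. Each library's deviation beside like peaks had the same sign in all 9 alternatives, but that of femur replicate 2 was -0.05 with gaps over 50000 bp and -0.26 with gaps over 200000 bp, against -0.13. Of 90 combinations of the 10 peaks named for a site difference with an alternative, 71 stayed under an unadjusted p of 0.05, 19 did not and 0 reversed. Alternatives that need a genome or annotation of GRCm39 were not run.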
